A study of Mus musculus with 28 samples.

Results

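The genes described here are 8 transcription factors of cortical projection neurons, namely Bcl11b, Fezf2, Tbr1, Neurod2, Neurod6, Cux1, Cux2 and Emx1. They were chosen by name and matched through their gene identifiers, and they are 8 of the 45513 genes that the count files list. Their levels were followed across 2 cell types, across controls and cells that express human TDP-43 (hTDP-43) or its A315T form, and across total mRNA and ribosome footprints.

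Projection neurons are the glutamatergic neurons of the cortex that send axons to distant targets, and each layer holds neurons with its own set of transcription factors. Bcl11b (CTIP2) and Fezf2 are needed for the deep-layer neurons that project out of the cortex to the brainstem and spinal cord, and Tbr1 for the corticothalamic neurons of the deepest layer. Neurod2 and Neurod6 (NEX) are basic helix-loop-helix activators that newly formed excitatory neurons of all layers switch on, Cux1 and Cux2 are homeodomain factors of the upper layers, and Emx1 is a homeodomain factor of the dorsal progenitors and of the excitatory neurons that descend from them.

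TDP-43 is an RNA-binding protein that forms aggregates in amyotrophic lateral sclerosis, and A315T is a disease-linked substitution in it. The study asked which mRNAs change in ribosome occupancy when human TDP-43 or the A315T protein is expressed, and sequenced 28 libraries, 1 of ribosome footprints and 1 of total mRNA from each culture. The MN1 line is a clonal hybrid of motor neurons of the mouse spinal cord and neuroblastoma cells, kept to 10 to 12 passages. Its cells received, by transient transfection, constructs for GFP, for hTDP-43 or for hTDP-43 A315T, with 2 cultures of each, and 100 µg/mL cycloheximide was added for 3 min before lysis. Cortical neurons were taken from C57BL/6J mice at embryonic day 16, received 0.5 µM Ara-C on day 4 and were harvested on day 14 in vitro. They came from non-transgenic littermates (WT, 2 cultures) and from hemizygous mice that carried hTDP-43 (3 cultures) or the mutant hTDP-43 A315T (3 cultures, called A315T here in both cell types) under the prion protein promoter, which is active in many cell types besides cortical projection neurons. By the study's methods neurons were lysed without the cycloheximide step, so cell type, transfection and drug treatment cannot be told apart between MN1 cells and neurons.

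The neuron libraries held 600385 to 6969578 reads on genes for total mRNA and 166064 to 2528820 for footprints, and those of MN1 cells held 1328528 to 2988339 and 332370 to 1219222. In total mRNA, Tardbp, the mouse gene of TDP-43, was counted at 224 to 246 CPM (reads scaled to a common library total) in GFP-transfected MN1 cells and at 347 to 426 CPM in the 4 cultures that received either human construct. In neurons it was at 65.4 and 112 CPM in WT and at 58.3 to 88.1 CPM in the transgenic cultures, so the groups overlapped there. Whether reads of the human sequence were counted on the mouse gene was not tested. By the paper's immunoblot, endogenous TDP-43 protein was reduced in MN1 cells that received either human construct. The neuron total mRNA libraries of WT replicate 3 and hTDP-43 replicate 3 stood apart: Lars2 took 18.8% and 14.1% of their reads against 3.09% to 7.49% in the other 6, and Lhx9, a factor of thalamic neurons, was at 512 and 298 CPM against at most 6.98 CPM. The summed level of all 8 listed thalamic markers, Lhx9 included, was at most 575 CPM in WT and 370 CPM in hTDP-43 total mRNA. Lhx9 footprints of the same cultures were at 13.1 and 6.68 CPM. Whether thalamic cells were present was not tested. The main results that rest on these cultures are also given without them. The labelled cell types carried their markers: Slc17a7, the vesicular glutamate transporter of cortical neurons, was at 457 to 1094 CPM in neurons and at most 3.03 CPM in MN1 cells, whereas the motor neuron factor Isl1 was at 26.6 to 38.8 CPM in MN1 cells and at most 6.41 CPM in neurons. The defining motor neuron markers Mnx1 and Chat were near 0 in MN1 cells, at no more than 1.37 and 2.54 CPM. The neuron cultures were mixed: all 11 markers of GABAergic interneurons were detected, with a summed level of 1293 to 1976 CPM, and all 6 of astrocytes, with 255 to 612 CPM, beside 2741 to 3982 CPM for the 5 glutamatergic markers. All 9 matched markers of striatal projection neurons, which also express Bcl11b, were detected too, at a summed 216 to 520.3 CPM against 43.8 to 65.7 CPM in MN1 cells, and their part in the Bcl11b level was not tested. In such bulk samples, fewer cells of a type and less RNA per cell cannot be told apart.

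Promoter sequences of 4 of the 8 genes are shown as examples from the contrasts described below. In neurons Neurod2, like Cux1 and Cux2, was lower in footprints than in total mRNA, and Tbr1, like Neurod6, was higher. Cux1 was the member abundant in MN1 cells while its paralogue Cux2 was scarce there. A link between promoter sequence and these contrasts was not tested. Each run covers 250 bases before and 50 bases after a RefSeq transcription start in GRCm38.p6, on the strand of the gene, and all 8 genes had an entry (Cux2 had 2, so 9 windows in all). Capitals mark the E-box CAGATG, which NeuroD-type factors recognise, the homeodomain core TAATTA and the repeat TGTGTGTG, searched on both strands (CATCTG is the E-box read from the other strand), where matches of the repeat may overlap each other.
Neurod2, chr11:98329596-98329895, minus strand: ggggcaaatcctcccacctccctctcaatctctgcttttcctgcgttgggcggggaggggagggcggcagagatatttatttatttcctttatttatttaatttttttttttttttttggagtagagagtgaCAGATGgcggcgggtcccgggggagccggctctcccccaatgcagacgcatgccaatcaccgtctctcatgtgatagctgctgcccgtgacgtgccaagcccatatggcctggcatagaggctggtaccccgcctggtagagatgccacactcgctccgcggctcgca
Tbr1, chr2:61804203-61804502, plus strand: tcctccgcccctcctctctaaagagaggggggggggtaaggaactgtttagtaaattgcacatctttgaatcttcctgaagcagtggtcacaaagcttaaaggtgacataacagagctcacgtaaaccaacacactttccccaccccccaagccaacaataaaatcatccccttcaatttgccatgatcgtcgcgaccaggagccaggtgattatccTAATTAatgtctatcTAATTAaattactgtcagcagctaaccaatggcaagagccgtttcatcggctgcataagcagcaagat
Cux1, chr5:136565932-136566231, minus strand: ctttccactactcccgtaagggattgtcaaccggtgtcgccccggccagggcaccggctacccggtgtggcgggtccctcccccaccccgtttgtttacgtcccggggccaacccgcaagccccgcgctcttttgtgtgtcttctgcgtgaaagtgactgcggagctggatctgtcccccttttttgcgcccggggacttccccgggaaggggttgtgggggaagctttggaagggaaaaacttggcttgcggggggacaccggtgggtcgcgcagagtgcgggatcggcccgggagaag
Cux2, chr5:122047776-122048075, minus strand: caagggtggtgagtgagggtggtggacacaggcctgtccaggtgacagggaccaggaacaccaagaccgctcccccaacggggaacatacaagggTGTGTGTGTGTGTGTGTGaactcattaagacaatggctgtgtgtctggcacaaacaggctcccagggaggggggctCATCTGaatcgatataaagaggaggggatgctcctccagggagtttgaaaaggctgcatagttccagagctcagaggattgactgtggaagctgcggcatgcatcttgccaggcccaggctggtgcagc
The E-box was present in 2 of the 9 windows (Neurod2 and this Cux2 start) and in 17.2% of the 32851 promoters of the same length. The homeodomain core was present in 1 of the 9 (Tbr1, with 2 matches) and in 5.29% of all promoters, and the repeat in 1 of the 9 (Cux2, with 6 overlapping matches) and in 4.09%. The Cux1 window held 25 CpG dinucleotides and was 65.0% G or C, against medians of 7 and 52.7% over all promoters, and the Tbr1 window held 7 and was 46.0% G or C. The 4 windows thus ranged from 25 CpG at Cux1 to 4 at this Cux2 start, the other Cux2 start having 48.

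The members lie on chromosomes 2, 5, 6, 11, 12 and 14 (GRCm38, positions as in the count files), with Cux1 and Cux2 both on chromosome 5 and Neurod6 and Emx1 both on chromosome 6. Tbr1 (ENSMUSG00000035033) spans chr2:61802930-61814114 and Neurod2 (ENSMUSG00000038255) chr11:98325415-98329648. Cux2 (ENSMUSG00000042589) spans chr5:121856366-122050102 and Cux1 (ENSMUSG00000029705) chr5:136248135-136567490. Neurod6 (ENSMUSG00000037984) spans chr6:55677818-55681263 and Emx1 (ENSMUSG00000033726) chr6:85187438-85204462. Bcl11b (ENSMUSG00000048251) spans chr12:107910403-108003602 and Fezf2 (ENSMUSG00000021743) chr14:12341892-12345865. Their annotated exons sum to between 2154 bases in Neurod6 and 20024 bases in Cux1, whose locus also encodes the Golgi protein CASP, so reads counted there include both products. Counting was done on exons and without strand. Among the 8 genes, Cux1 alone shares exonic bases with another gene, 394 bases with the antisense gene Gm16599, and reads there could not be assigned to a strand.

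In total mRNA, all 8 genes were higher in cortical neurons than in MN1 cells, against 42.6% of the 12801 genes tested (edgeR quasi-likelihood test, Benjamini-Hochberg adjusted p under 0.05). The difference ran from a pooled ratio of 1.39 for Cux1 to at least 361-fold for Neurod6. The median of the 8 log2 fold changes was 6.75 as fitted and 6.33 with the genes that had no read in MN1 cells at their lower bound, against 0.09 over all genes tested. The 8 genes were chosen as factors of cortical neurons. Bcl11b, Fezf2, Neurod2, Neurod6 and Emx1 passed the filter on low counts through neuron libraries alone. For them a higher level in neurons was the only call possible.

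Among the deep-layer factors, Bcl11b stood at 121 CPM in its lowest, 209 in its median and 277 in its highest of the 8 neuron libraries, and at 0.302, 0.577 and 1.41 CPM in the 6 MN1 libraries. These MN1 values came from 10 reads in all, 1 to 3 per library, so the neuron level lay far above every MN1 library. The log2 fold change was 8.13 ± 0.32 (SE derived from the F statistic, adjusted p = 1.01e-11). The pooled ratio was 293, with a 95% exact interval of 159 to 611 from counting error alone. That interval is wider than the SE implies. Fezf2 stood at 21.6, 32.0 and 40.3 CPM in neurons and at 0, 0.910 and 1.37 CPM in MN1 cells (12 reads in all), a log2 fold change of 5.38 ± 0.29 (adjusted p = 3.01e-10). Its pooled ratio was 36.1, with a 95% exact interval of 20.6 to 70.3, again wider than the SE implies. Tbr1 stood at 67.6, 94.8 and 108 CPM in neurons and at 1.88, 6.81 and 13.7 CPM in MN1 cells. With 105 reads over the 6 libraries, its transcript was detected in every MN1 culture, and its log2 fold change was 3.69 ± 0.26 (adjusted p = 6.35e-09).

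The NeuroD factors of excitatory neurons were absent or nearly so in MN1 cells. Neurod6 had 0 reads in all 6 MN1 total mRNA libraries and 60.5, 79.6 and 101 CPM (lowest, median, highest) in neurons. Set against the limit that 3 reads over the 6 MN1 libraries allow, 0.216 CPM, this was at least 361-fold higher. Neurod2 had 8 reads in MN1 cells, 4 in each of 2 libraries, and stood at 124, 141 and 176 CPM in neurons (adjusted p = 5.81e-11). Its pooled ratio was 246, with a 95% exact interval of 125 to 570 that covers counting error only. Emx1, the factor of the dorsal lineage, also had 0 reads in MN1 total mRNA and stood at 17.9, 33.0 and 49.7 CPM in neurons, at least 154-fold higher. The lowest of these neuron values, 17.9 CPM, came from WT replicate 3, one of the libraries that stood apart.

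The paralogues of the upper layers differed from each other. Cux1 stood at 114, 140.4 and 183 CPM in neurons and at 92.1, 97.7 and 116 CPM in MN1 cells. The lowest neuron library thus lay just below the highest MN1 library, and the log2 fold change of 0.52 ± 0.11 (adjusted p = 0.00043) was the smallest of the 8. With raw library totals in place of the scaling, the pooled Cux1 ratio was 1.05 (95% exact interval 0.988 to 1.12) instead of 1.39, so its size depends on the scaling. Cux2 stood at 117, 159 and 192 CPM in neurons and at 1.64, 3.70 and 7.76 CPM in MN1 cells (63 reads), with a log2 fold change of 5.27 ± 0.17 (adjusted p = 2.58e-12). The CPM of both genes thus overlapped in neurons, whereas in MN1 cells every Cux2 library lay far below every Cux1 library. CPM is not corrected for gene length, and per exon length the neuron median was 28.2 TPM for Cux2 and 12.7 TPM for Cux1. Without the neuron cultures that stood apart, 8 of 8 genes were called.

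**Figure D1:**
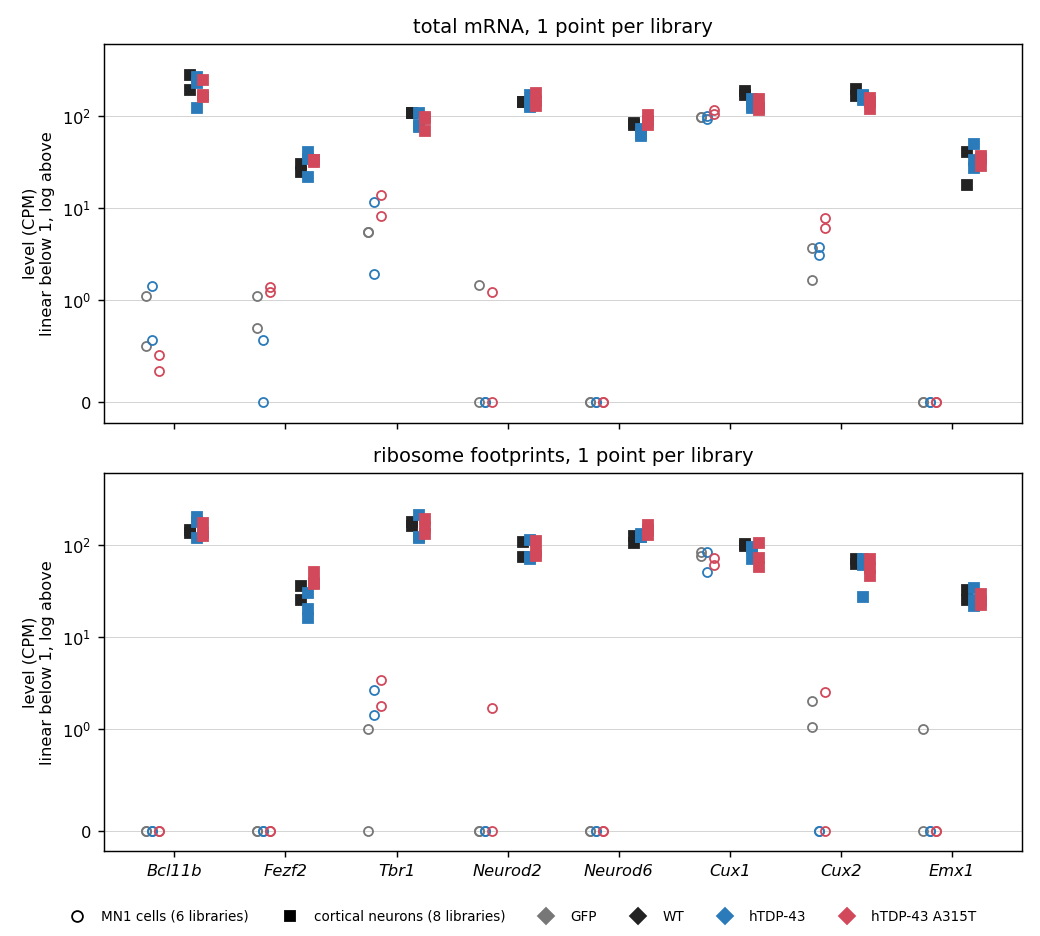
Level of each gene in CPM (y axis, linear below 1 and logarithmic above) in every MN1 library (open circles) and every cortical neuron library (filled squares), for total mRNA (upper panel) and ribosome footprints (lower panel), with colours for GFP, WT, hTDP-43 and A315T. Cux1 is the gene whose MN1 and neuron points lie together, and Neurod6 has 0 reads in all 12 MN1 libraries.

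In ribosome footprints, 7 of the 8 genes were higher in neurons, against 42.7% of the 10698 genes tested, and the median log2 fold change was 7.36 as fitted and 6.81 with bounds and count ratios, against 0.05 over all genes. These 7 genes passed the filter on low counts through neuron libraries alone, so no other call was possible for them. Tbr1 stood at 118, 156 and 207 CPM in the neuron libraries and at 0, 1.57 and 3.38 CPM in the MN1 libraries (8 reads), a log2 fold change of 6.63 ± 0.27 (adjusted p = 1.75e-15). Cux2 stood at 26.7, 60.5 and 70.3 CPM in neurons and had 6 reads in MN1 cells, a log2 fold change of 6.35 ± 0.39 (adjusted p = 3.24e-12). Neither gene's groups overlapped.

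Bcl11b, Fezf2 and Neurod6 had 0 footprint reads in all 6 MN1 libraries. Against the limit of 3 reads, 0.625 CPM, their footprints were at least 252-fold, 53.0-fold and 204-fold higher in neurons. Neurod2 had 2 footprint reads in MN1 cells, which gave a pooled ratio of 198 (95% exact interval 54.5 to 1634), and Emx1 had 1, a ratio of 127 (22.5 to 5022). For Cux1, the footprint level was 56.9, 92.9 and 104 CPM in neurons and 50.2, 73.8 and 83.8 CPM in MN1 cells, and the ranges overlapped. Its log2 fold change of 0.31 ± 0.15 did not pass the threshold (adjusted p = 0.058). That call depended on single cultures: the adjusted p was under 0.05 in 7 of the 14 fits that left out 1 culture each, and lowest, 0.0095, without MN1 A315T replicate 1.

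Levels of different genes were compared per length in the 8 neuron libraries. In total mRNA per exon length, Neurod2 was the most abundant, with a median of 86.2 TPM (reads divided by length and scaled to a common total), followed by Neurod6 at 69.7, Bcl11b at 48.2, Tbr1 at 28.7, Emx1 at 28.6, Cux2 at 28.2, Fezf2 at 27.0 and Cux1 at 12.7. The 8 genes thus lay between percentile 62.0 (Cux1) and percentile 92.2 (Neurod2) of the 17731 genes with a median above 0. Neighbours in this order were compared within libraries by a two-sided exact permutation test with 7 comparisons, whose smallest possible p is 0.0078. Neurod2 exceeded Neurod6 in 7 of 8 libraries (1.27-fold, adjusted p = 0.036), Bcl11b exceeded Tbr1 in 8 of 8 (1.49-fold, adjusted p = 0.027) and Fezf2 exceeded Cux1 in 8 of 8 (1.88-fold, adjusted p = 0.027). Neurod6 and Bcl11b did not pass (1.46-fold, adjusted p = 0.055), nor did the neighbours from Tbr1 to Fezf2 (adjusted p = 0.27 to 0.84). In this unit 7 of the genes were lowest in WT replicate 3 and Neurod6 in hTDP-43 replicate 3, the libraries that stood apart. Without these, Neurod2 exceeded Neurod6 in 5 of 6 libraries (1.25-fold), Bcl11b exceeded Tbr1 in 6 of 6 (1.43-fold) and Fezf2 exceeded Cux1 in 6 of 6 (1.97-fold). Neurod6 then exceeded Bcl11b in 6 of 6 (1.66-fold), so the result for that pair depends on the libraries that stood apart. Per coding length, the order of Fezf2 and Cux1 was lost (Cux1 higher, 1.11-fold, in 4 of 8 libraries, adjusted p = 0.46).

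Ribosome footprints were set per coding length, since ribosomes cover the coding part of an mRNA. Here Neurod6 was first, with a median of 157 TPM, and Tbr1 (90.0), Neurod2 (86.1), Bcl11b (65.4), Emx1 (40.5), Fezf2 (28.4), Cux1 (20.0) and Cux2 (17.1) followed. Neurod6 exceeded Tbr1 in 8 of 8 libraries (1.73-fold, exact permutation test, adjusted p = 0.027) and Bcl11b exceeded Emx1 in 8 of 8 (1.64-fold, adjusted p = 0.027). The other 5 pairs of neighbours did not pass, with adjusted p from 0.055 to 0.86. Neurod6 thus led in footprints, whereas Tbr1 and Neurod2 could not be separated (Tbr1 higher in 3 of 8 libraries, ratio 0.979, adjusted p = 0.86). Without the libraries that stood apart, Neurod6 exceeded Tbr1 and Bcl11b exceeded Emx1 in 6 of 6 libraries each (1.90-fold and 1.70-fold).

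**Figure D2:**
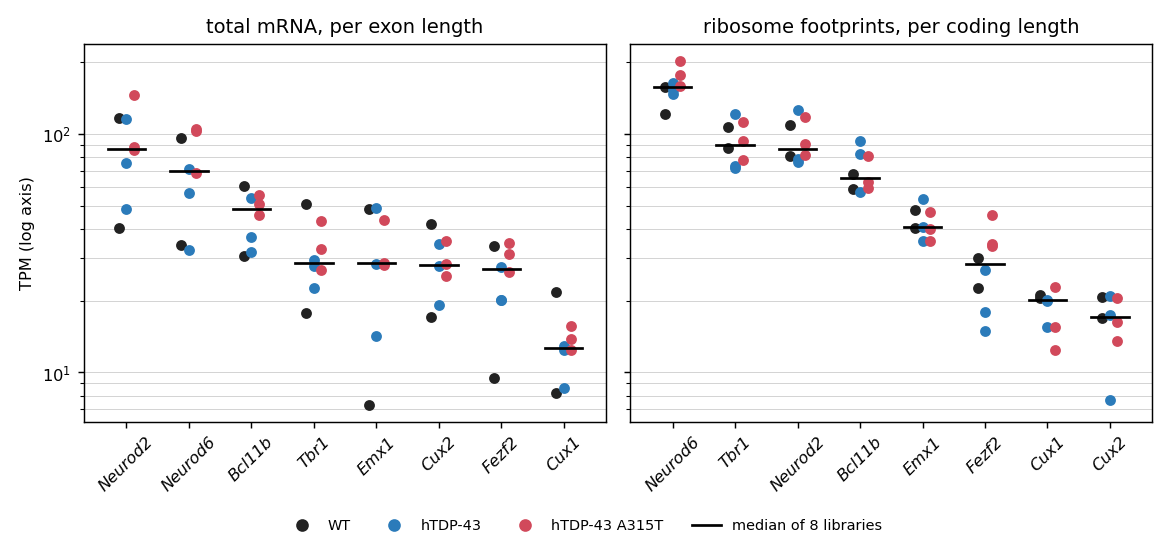
TPM (logarithmic y axis) of the 8 genes in the 8 cortical neuron libraries, for total mRNA per exon length (left) and ribosome footprints per coding length (right); points are libraries, coloured by genotype, and bars are medians. Neurod2 leads on the left at 86.2 TPM and Neurod6 on the right at 157 TPM, and Cux1 and Cux2 are the lowest 2 on the right.

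Footprints were then compared with total mRNA of the same genes, a ratio commonly called translational efficiency. In neurons 2 of the 8 genes were higher in footprints, against 26.6% of the 11654 genes tested, and 3 were lower, against 27.3%. The median log2 difference of the 8 genes was -0.32, against 0.00 over all genes.

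Tbr1 and Neurod6 were the members with more footprints than total mRNA. For Tbr1, the ratio of footprint CPM to total mRNA CPM was 1.65 and 1.45 in the WT cultures, 1.53, 1.56 and 1.93 in the hTDP-43 cultures and 1.33, 2.30 and 2.05 in the A315T cultures. All 8 cultures lay above 1, and the fitted log2 difference was 0.83 ± 0.14 (SE, edgeR, adjusted p = 8.32e-05). For Neurod6, the ratio was 1.58 and 1.27 in the WT cultures, 1.92, 1.81 and 1.99 in those with hTDP-43 and 1.59, 1.61 and 1.62 in A315T, again above 1 in all 8. Its log2 difference was 0.79 ± 0.11 (adjusted p = 7.63e-06).

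Cux2, Neurod2 and Cux1 had fewer footprints than total mRNA in all 8 cultures. For Cux2, the ratio was 0.432 and 0.321 in the WT cultures, 0.402, 0.431 and 0.159 in those with hTDP-43 and 0.448, 0.393 and 0.400 in A315T. The lowest of these, 0.159, rested on 4 footprint reads in hTDP-43 replicate 3, and the log2 difference over all cultures was -1.29 ± 0.14 (adjusted p = 6.39e-07). Neurod2 ranged from 0.522 to 0.753, with a log2 difference of -0.65 ± 0.14 (adjusted p = 0.00089), and Cux1 from 0.499 to 0.706, with -0.62 ± 0.13 (adjusted p = 0.00071). The paralogues Neurod2 and Neurod6 therefore lay on opposite sides of the average gene, and their ranges over cultures did not overlap.

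Bcl11b lay below 1 in all 8 cultures, from 0.480 to 0.977, but its log2 difference of -0.39 ± 0.17 did not pass (adjusted p = 0.054). With each culture as a replicate block, so that footprints and total mRNA were paired within cultures, it passed (-0.38 ± 0.11, adjusted p = 0.0089). It also passed with RLE size factors, without the filter on low counts and with DESeq2 (adjusted p = 0.028, 0.015 and 0.022), but was -0.27 ± 0.19 (adjusted p = 0.25) without the cultures that stood apart, and its adjusted p ranged from 0.0089 to 0.25 over the alternatives. Emx1 ranged from 0.433 to 1.78 and Fezf2 from 0.497 to 1.52, and neither passed (adjusted p = 0.32 and 0.52). The highest Emx1 ratio, 1.78, was that of WT replicate 3, and without the cultures that stood apart Emx1 was lower in footprints (-0.51 ± 0.18, adjusted p = 0.029, from 0.027 to 0.92 over the alternatives). Total mRNA covers the untranslated parts that footprints leave out, and coding sequence makes up 46.9% of the exonic bases of Neurod6, 38.3% of Tbr1, 42.4% of Cux2, 36.6% of Neurod2, 28.8% of Cux1, 32.7% of Bcl11b, 35.3% of Emx1 and 59.9% of Fezf2 (median of 22048 coding genes 49.3%). The part of these shares in the ratios was not tested.

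**Figure D3:**
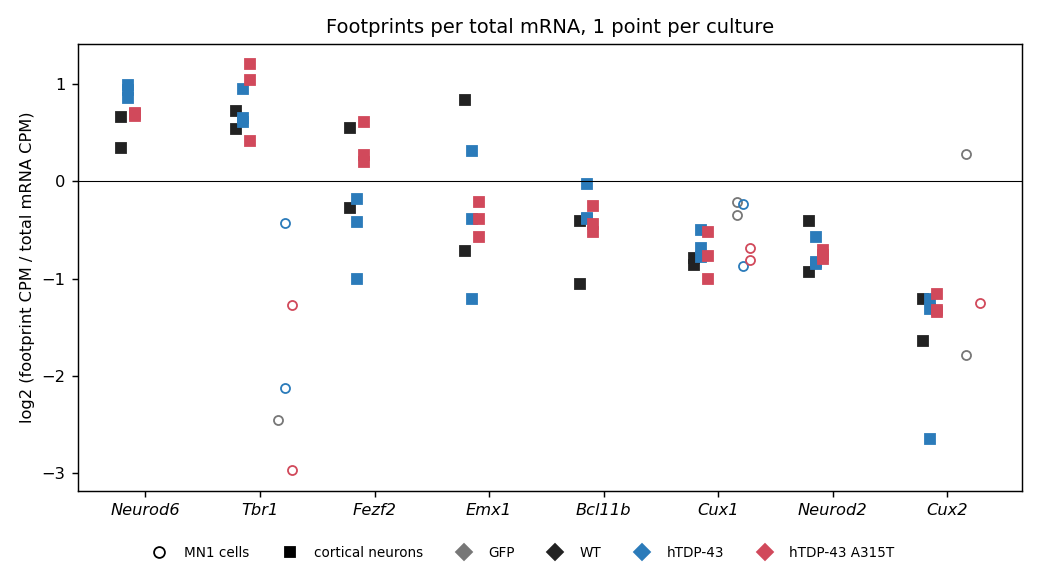
Log2 ratio of footprint CPM to total mRNA CPM (y axis) in each culture of cortical neurons (filled squares) and, for Tbr1, Cux1 and Cux2, in each MN1 culture with reads in both libraries (open circles), with colours for GFP, WT, hTDP-43 and A315T. In neurons all points of Neurod6 and Tbr1 lie above 0 and all of Bcl11b, Cux1, Neurod2 and Cux2 below, while the MN1 points of Tbr1 lie below 0.

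In MN1 cells Tbr1 and Cux1 were the members that passed the filter on low counts for this comparison, and both were lower in footprints, against 30.2% of the 10212 genes tested. Tbr1 passed the filter through its total mRNA libraries alone, the side where it was higher, so its lower call in footprints is not independent of the filter. Tbr1 had 4, 1, 1, 0, 1 and 1 footprint reads beside 27, 30, 10, 15, 4 and 19 total mRNA reads in A315T replicates 1 and 2, GFP replicates 1 and 2, and hTDP-43 replicates 1 and 2. Its log2 difference was -2.22 ± 0.64 (adjusted p = 0.0088), opposite in sign to that in neurons. For Cux1, with 354 footprint reads, the ratio was 0.865 and 0.784 in GFP, 0.852 and 0.545 in hTDP-43 and 0.620 and 0.571 in A315T, and the log2 difference was -0.40 ± 0.11 (adjusted p = 0.0065).

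The difference between cell types was tested as an interaction of library type and cell type. Tbr1 was the 1 member that passed, higher in neurons, against 5.94% of the 12358 genes tested: its log2 difference between footprints and total mRNA was larger in neurons than in MN1 cells by 3.14 ± 0.54 (adjusted p = 0.00076). All genes tested had a median of 0.20 in this contrast, in which edgeR called 734 genes higher and 263 lower in neurons. With RLE size factors this split was 187 and 417, so the direction of the average gene depends on the scaling. The Tbr1 value stayed between 2.70 and 4.14 over all alternatives, and DESeq2 called Tbr1 too. Cux1 did not pass (-0.10 ± 0.20, adjusted p = 0.90), nor did Cux2 (1.51 ± 0.84, adjusted p = 0.29), and neither did the other 5 members (adjusted p from 0.13 to 1.00), whose fitted values against 0 to 2 footprint reads in MN1 cells depend on the prior count and are not given.

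Between genotypes of cortical neurons, no member passed the test in total mRNA or in footprints. The human proteins came from separate transgenic lines, and the paper reports somewhat higher A315T than hTDP-43 protein in these cultures. Substitution, line and protein level therefore cannot be told apart between A315T and hTDP-43. In total mRNA the 8 genes gave log2 fold changes of -0.44 to 0.25 for A315T against WT, -0.38 to 0.32 for hTDP-43 against WT and -0.21 to 0.44 for A315T against hTDP-43, with standard errors of 0.17 to 0.43. The threshold was passed by 0% of the 11927, 11828 and 11201 genes tested (edgeR), of which 196, 44 and 119 had an unadjusted p under 0.05. Among the members, 0, 0 and 1 did, and DESeq2 called 1, 0 and 0 genes and no member. With dates as a replicate block, 35, 20 and 0 of all genes and no member passed. Without WT replicate 2 more genes passed for A315T against WT, again with no member. The WT group was then the single library of replicate 3, which stood apart, so that fit cannot judge the 0%. In footprints the log2 fold changes were -0.27 to 0.49, -0.30 to 0.26 and -0.19 to 0.62 in the same order, with standard errors of 0.17 to 0.34. Of the 9510, 8117 and 8367 genes tested, 0% passed, 300, 419 and 217 had an unadjusted p under 0.05, and the members among these were 0, 0 and 1. DESeq2 called 0 genes in footprints, and the replicate block 8, 5 and 15 genes and no member.

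The total mRNA difference with an unadjusted p under 0.05 was that of Neurod6, singled out after its values were seen. It stood at 79.2 and 82.4 CPM in WT, at 63.6, 71.3 and 60.5 CPM in hTDP-43 and at 79.9, 101 and 87.8 CPM in A315T. The A315T and hTDP-43 libraries did not overlap, and the log2 difference between them was 0.44 ± 0.18 (unadjusted p = 0.032 and adjusted p = 1.00, edgeR), and 0.42 ± 0.18 without hTDP-43 replicate 3, which stood apart. Replicate numbers stood for shared dates in the labels, and within replicates 1, 2 and 3 the log2 difference was 0.33, 0.50 and 0.54. In footprints Neurod6 was at 125 and 105 CPM in WT, at 122, 129 and 120.3 CPM in hTDP-43 and at 127, 162 and 142 CPM in A315T, where hTDP-43 and A315T overlapped.

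In footprints the corresponding gene was Fezf2. It stood at 24.7 and 35.5 CPM in WT, at 29.4, 16.1 and 20.04 CPM in hTDP-43 and at 37.8, 50.3 and 37.4 CPM in A315T. The last 2 groups did not overlap, with a log2 difference of 0.62 ± 0.27 (unadjusted p = 0.038 and adjusted p = 1.00, edgeR), or 0.58 ± 0.29 without hTDP-43 replicate 3, but hTDP-43 replicates 2 and 3 held 3 Fezf2 footprint reads each. Total mRNA of Fezf2 showed no such separation: it was at 33.4, 21.6 and 40.3 CPM in hTDP-43 and at 33.0, 33.1 and 31.1 CPM in A315T.

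Cux1, Cux2 and Tbr1 had higher values in WT than in A315T, and none passed the test. Cux1 total mRNA was at 167 and 183 CPM in WT, at 131, 119.9 and 150.1 CPM in hTDP-43 and at 150.3, 114 and 122 CPM in A315T. Both WT libraries lay above all 6 transgenic libraries, and WT has no library of replicate 1. Cux2 was at 163 and 192 CPM in WT, at 147, 162 and 168 CPM in hTDP-43 and at 156, 117 and 139 CPM in A315T. The A315T libraries lay below those of WT (log2 difference -0.37 ± 0.23, adjusted p = 1.00, edgeR; -0.48 and -0.47 within replicates 2 and 3), and those of hTDP-43 overlapped with WT. Bcl11b total mRNA spread widely within genotypes, from 121 to 259.9 CPM in hTDP-43 and from 160.0 to 244 CPM in A315T, with 189 and 277 CPM in WT. Tbr1 was at 108 and 108 CPM in WT, and its hTDP-43 and A315T libraries spanned 75.6 to 108 and 67.6 to 97.7 CPM, so A315T lay below WT (-0.33 ± 0.24, adjusted p = 1.00, edgeR). With raw library totals, WT replicate 3, which stood apart, was at 125 CPM for Cux1, 131 for Cux2 and 73.6 for Tbr1. A315T replicate 1 was then higher, at 132, 137 and 85.6 CPM, so the separation of WT from A315T in these 3 genes depends on the scaling.

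**Figure D4:**
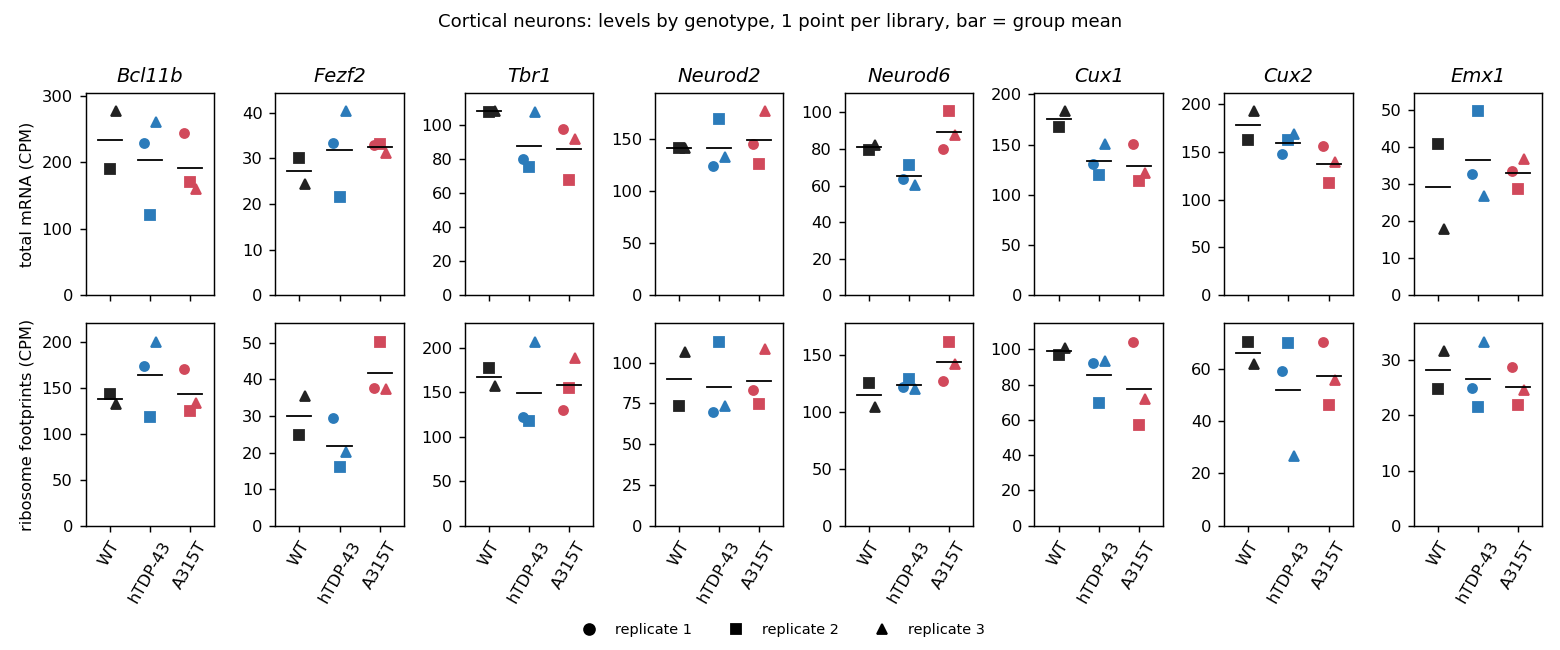
Level in CPM (y axes from 0, each panel with its own scale) of the 8 genes in each cortical neuron library, for total mRNA (upper row) and ribosome footprints (lower row), by genotype; marker shapes are replicate numbers and bars are group means. Neurod6 total mRNA of hTDP-43 (60.5 to 71.3 CPM) lies below A315T (79.9 to 101 CPM), and Cux1 total mRNA of WT (167 and 183 CPM) lies above both transgenic groups, the latter not with raw library totals.

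The ratio of footprints to total mRNA did not pass between genotypes for any member either. In neurons the 8 interaction values ran from -0.25 to 0.35 for A315T against WT, from -0.42 to 0.47 for hTDP-43 against WT and from -0.24 to 0.59 for A315T against hTDP-43, with standard errors of 0.24 to 0.60. In these contrasts 0% of the genes tested passed in edgeR (195, 72 and 130 had an unadjusted p under 0.05), none of the 8 members had an unadjusted p under 0.05, and DESeq2 called 0 genes.

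Few members could be tested between the transfections of MN1 cells. In total mRNA Tbr1, Cux1 and Cux2 passed the filter on low counts for A315T against GFP and against hTDP-43, and Tbr1 and Cux1 for hTDP-43 against GFP. In footprints Cux1 alone did. No member was called, against 0.00965%, 0% and 0.01% of all genes in total mRNA and 0.0115%, 0% and 0% in footprints, where the first value of each is for A315T against GFP, the next for A315T against hTDP-43 and the last for hTDP-43 against GFP. An unadjusted p under 0.05 was reached by 548, 355 and 67 genes in total mRNA, 1, 0 and 0 of them members, and by 245, 179 and 115 genes in footprints, 0 of them members. With dates as a replicate block, 283, 76 and 47 genes passed in total mRNA and 54, 54 and 13 in footprints, so the background depends on the pairing, and no member was among them. DESeq2 called no member.

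Cux2 total mRNA was at 1.64 and 3.63 CPM in GFP, at 3.77 and 3.03 CPM in hTDP-43 and at 6.04 and 7.76 CPM in A315T, from 3 to 20 reads per library. The A315T libraries lay above the other 4, and the log2 difference from GFP was 1.21 ± 0.51 (unadjusted p = 0.043 and adjusted p = 0.85, edgeR). Tbr1 was at 5.47 and 5.44 CPM in GFP, at 1.88 and 11.5 CPM in hTDP-43 and at 8.15 and 13.7 CPM in A315T. The hTDP-43 libraries differed most from each other, and against them the log2 difference of A315T was 0.66 ± 0.64 (adjusted p = 1.00). Without hTDP-43 replicate 2 it became 2.37, in a fit that left 1 hTDP-43 library with 4 Tbr1 reads. Without hTDP-43 replicate 1 it was -0.21, so 1 library decided it. Cux1 was at 96.9 and 96.9 CPM in GFP, at 98.4 and 92.1 CPM in hTDP-43 and at 116 and 104 CPM in A315T, with a log2 difference from GFP of 0.11 ± 0.14 (adjusted p = 0.92). Of the interactions of library type and transfection, 2, 2 and 1 members could be tested, 0 passed in edgeR and DESeq2, as did 0% of all genes, and 0 had an unadjusted p under 0.05.

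A list of 32 other transcription factors of cortical development was set beside the 8 genes. In total mRNA 29 were tested between the cell types, and 24 were higher in neurons, beside 42.6% of all genes. A further 3 were lower and 2 (Neurog2 and Id2) not called, and the median log2 fold change was 3.91. Some, such as Mef2c and Bcl11a with 2 and 4 reads in MN1 cells, passed the filter on low counts through neuron libraries alone. All 9 factors shared by postmitotic neurons were higher, and 7 of 8 upper-layer, 6 of 8 deep-layer and 2 of 4 tested progenitor and regional factors. Among the largest fold changes were those of Mef2c, an activity-regulated MADS-box factor (410.3 to 556 CPM in neurons, at most 0.456 CPM in MN1 cells) and Bhlhe22 (115 to 257 against at most 0.912 CPM). Lower in neurons were Otx1 (log2 fold change -1.55 ± 0.36, adjusted p = 0.0010), the progenitor factor Pax6 (-1.19 ± 0.35, adjusted p = 0.0059) and the ETS factor Etv1 (-0.68 ± 0.23, adjusted p = 0.013), which are thus factors of the cortex that MN1 cells also express. In footprints 26 were tested, and 23 were higher in neurons, beside 42.7% of all genes, and 2 lower. Between footprints and total mRNA in neurons, 10 of 29 were higher and 8 lower, beside 26.6% and 27.3% of all genes. In the comparisons between genotypes of neurons 22 to 31 of the 32 factors were tested, and between transfections of MN1 cells 9 to 15, and 0 were called in total mRNA, footprints or their ratio.

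All 8 genes had at least 10 reads in each of the 8 neuron total mRNA libraries, and the genes whose log2 CPM followed them most closely were sought among 6960 genes with as many reads. For Neurod6 these were Lrrc8d (Pearson r = 0.99), Kat5 (0.90) and Calu (0.88), for Bcl11b Tmtc1 (0.99), Eif2ak4 (0.98) and Dop1a (0.97), and for Emx1 Pex14 (0.99), Thop1 (0.99) and Fyn (0.98). For Fezf2 they were Rundc3b (0.94), Rragc (0.94) and Ppp3cb (0.93), for Cux2 Add2 (0.98), Hmgxb3 (0.96) and Dusp8 (0.93), and for Neurod2 Kndc1 (0.91), Mgat5b (0.91) and 4931428F04Rik (0.90). For Tbr1 they were Zfp324 (0.95), Ctif (0.90) and Acss2 (0.90), and for Cux1 Wls (0.90), Tspan33 (0.88) and Tbr1 itself (0.88). Cux1 was the one gene with another member among its closest 3. These values describe 8 libraries that share dates and differ in depth, 2 of which stood apart, and among so many genes high values arise readily.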

How the data were processed

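Ribosome footprints (28 to 34 nt) and poly(A)-selected, fragmented total mRNA were sequenced from 14 cultures. The deposited values are raw read counts per gene: per the file headers and the labels, the authors clipped reads with cutadapt 1.8.1, removed non-coding RNA with Bowtie2, aligned with TopHat2 and counted uniquely mapped reads on Ensembl exons (GRCm38) with featureCounts 1.4.4, without strand. Counts were fitted with edgeR 4.0.16 (R 4.3.3; quasi-likelihood test, TMM scaling, filterByExpr with minimum count 10 and total 15, Benjamini-Hochberg adjusted p under 0.05 over all genes tested), tested on simulated data. Coding lengths came from GENCODE M21. Standard errors given are the size of the log2 difference over the square root of the edgeR F statistic, not taken from the fit. For genes with few MN1 reads they can be smaller than counting error alone. Intervals and the floor of 3 counts cover counting error only. The p-values measure the spread between cultures, which the labels do not tie to separate animals. Named were all 8 members, the 3 largest called changes each way of the 32 other factors, and the 3 genes most correlated with each member; 1 gene that the rule names is not reported here. The members and lists were chosen with earlier results of these data known. Alternatives were RLE scaling, no filter, DESeq2 1.42.0, control groups only, a replicate block, 3 groups in 1 fit, raw library totals, coding length, leaving out each culture and, chosen after seeing the data, leaving out the cultures that stood apart. Cultures with the same replicate number share a date in the labels (1 GFP footprint library differs in the year), and their deviations from group means correlated at 0.39 to 0.52 (total mRNA) and 0.30 to 0.38 (footprints) in MN1 cells and at -0.17 to 0.52 and 0.03 to 0.25 in neurons.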

Additional observations from a re-analysis of the deposited data

Results flagged for a closer look

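Tbr1 was marked because its footprints differed from its total mRNA in opposite directions in the 2 cell types, and the interaction term passed the test: the log2 difference was 3.14 larger in neurons than in MN1 cells. The value rests on 8 footprint reads and 105 total mRNA reads of Tbr1 in the 6 MN1 libraries, against 1195 and 2163 in the 8 neuron libraries. Leaving out 1 culture at a time gave 2.70 to 4.14, with adjusted p from 0.00084 to 0.0083. Cycloheximide was added to MN1 cells for 3 min before lysis and not to neurons, while by the study's methods the lysis buffer held it for both. The part of the step before lysis in the result cannot be told apart from cell type.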

How the results depend on the processing

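The number of members called was the same, or within 1.5 times, in all 117 refits that changed the scaling, the filter, the tool, the groups in the fit or the replicate block, or that left out both cultures that stood apart. Leaving out 1 culture or library at a time gave 8 in every fit for cell type in total mRNA, 7 to 8 in footprints, 5 to 6 for footprints against total mRNA in neurons, 2 to 3 in MN1 cells and 1 for the difference between them. For the comparisons between genotypes it gave 0 in every fit, except in MN1 total mRNA for A315T against hTDP-43. There Tbr1 passed without hTDP-43 replicate 2. Other genes passed in that fit too, and with 1 hTDP-43 library it cannot judge the call. Among values that had not passed, leaving out 1 culture changed the sign of 3: Tbr1 in that comparison ranged from -0.21 (without hTDP-43 replicate 1) to 2.37, Emx1 footprints against total mRNA in neurons from -0.51 (without WT replicate 3) to 0.029 (without WT replicate 2), and Fezf2 from -0.052 (without WT replicate 3) to 0.24 and was -0.010 without hTDP-43 replicate 1. The cause was not tested. Over all genes, calls numbered 10369 for cell type in total mRNA and 6471 in the control groups alone, 997 for the difference in ratio between cell types, 604 with RLE size factors and 671 with DESeq2, and 0 for A315T against hTDP-43 in MN1 total mRNA and 11 with DESeq2. Between genotypes or transfections they numbered 0 to 1 per comparison, 0 to 283 with the replicate block and 1 to 209 without the filter. Leaving out 1 library changed them too, most for A315T against WT in neuron total mRNA without WT replicate 2. That fit left WT replicate 3, which stood apart, as the single WT library. The replicate block added the call of Bcl11b (adjusted p = 0.0089) and changed no other call of a member. Cux1 between cell types in total mRNA ranged from 0.48 to 0.95 over all alternatives, with the highest value in the control groups alone. With raw library totals the lowest folds became 273 (Neurod6) and 117 (Emx1) in total mRNA and 221 (Bcl11b), 46.6 (Fezf2) and 179.7 (Neurod6) in footprints. With coding length in place of exon length, Fezf2 and Cux1 changed places in the order of total mRNA, and Neurod6 and Bcl11b were level (94.5 and 94.2 TPM). Depth limits the members most in footprints, where neuron hTDP-43 replicates 2 and 3 held 3 to 31 reads of each.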
